A study of Mus musculus with 50 samples.

Results

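Cxcl13 and Ccl19 are the 2 chemokines examined here, chosen by name from the 1000 gene targets of a spatial transcriptomics panel, and both were measured in every field of view. The chemokine CXCL13 attracts B cells through the receptor CXCR5, and CCL19 attracts T cells, B cells and mature dendritic cells through CCR7. In lymph nodes both are made by stromal cells, with follicular dendritic cells a main source of CXCL13 and fibroblastic reticular cells of CCL19, downstream of lymphotoxin and the NF-kB pathway. In chronically inflamed organs, the liver included, the same pair is known from lymphocyte aggregates that form around ducts and vessels.

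The sections came from livers of 18-month-old mice. HIRA KO mice were C57BL/6 animals with HIRA fl/fl alleles that at 6 months were given the virus AAV8-TBG-Cre, which directs Cre to hepatocytes through the TBG promoter, so that HIRA, a chaperone of histone H3.3, is meant to be lost from hepatocytes alone. Controls were wild-type C57BL/6 mice given the same virus at the same age, so both groups carry the virus and the Cre recombinase and differ in the floxed alleles. Hira itself was not among the targets, so the deletion was not checked in these sections. RNA was counted in place by CosMx, an imaging method that decodes single transcripts and assigns them to segmented cells, in 50 fields of view. These lie in 6 separate stretches of tissue, called areas here, 3 from each genotype. The design names 3 mice a group, the labels tie no field of view to a mouse, and the areas were taken as the replicates. Control areas all lay on one side of the slide and HIRA KO areas on the other, so side and genotype cannot be told apart.

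After cells with under 20 counts or an outsized area were left out, 49665 of 52132 cells were kept, with 718991 to 1542205 counts per area and a median of 88 to 147 counts per cell. Levels are given as CPM, the gene's share of the counts of all targets in the same cells, scaled to 1000000 counts, and 95% intervals of single values are exact Poisson intervals that cover counting error only. The 10 negative probes, which match no mouse transcript, averaged 363.9 to 453.3 CPM per area, and the highest of them reached 517.1 to 625.7 CPM. Cells were grouped without the counts of Cxcl13 and Ccl19, and groups were called "-like" from marker genes. In the B-cell-like class Cd79a stood at 3333 CPM against 742.3 CPM in other cells, and in the cholangiocyte-like class Spp1 stood at 11010 against 365.4 CPM. The class called monocyte/dendritic-like was led by H2-Aa, H2-Ab1, Cd74 and H2-Eb1, genes of antigen presentation, but also held C1qa, C1qb, C1qc and Cd5l, genes of liver-resident macrophages, among its 10 leading genes. The CD45 stain was brighter in B-cell-, T/NK-, Kupffer- and monocyte/dendritic-like cells than in other cells in all 6 areas, whereas the PanCK stain did not separate cholangiocyte-like cells, with medians of 2851 against 2954 in control area 1 and 3418 against 3259 in HIRA KO area 3.

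The sequence before each gene start is shown because Cxcl13 and Ccl19 are known targets of the noncanonical NF-kB pathway. Different cell classes were also called higher for the 2 genes in these sections. Cxcl13 lies on chromosome 5 from 95956939 to 95961068 and Ccl19 on chromosome 4 from 42754525 to 42756365 (RefSeq, GRCm38.p6). The 250 bases before each start (chr5:95956689-95956938, plus strand, and chr4:42756366-42756615, minus strand) are printed 5' to 3'. Capitals mark matches to GGAGANTT on either strand. This is the core of 1 kB form, taken from chemokine genes of the noncanonical pathway.
Cxcl13: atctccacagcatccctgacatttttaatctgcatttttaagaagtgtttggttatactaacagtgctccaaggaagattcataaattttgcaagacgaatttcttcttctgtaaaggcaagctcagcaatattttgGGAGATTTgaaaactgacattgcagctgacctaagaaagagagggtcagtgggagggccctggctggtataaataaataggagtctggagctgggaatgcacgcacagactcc
Ccl19: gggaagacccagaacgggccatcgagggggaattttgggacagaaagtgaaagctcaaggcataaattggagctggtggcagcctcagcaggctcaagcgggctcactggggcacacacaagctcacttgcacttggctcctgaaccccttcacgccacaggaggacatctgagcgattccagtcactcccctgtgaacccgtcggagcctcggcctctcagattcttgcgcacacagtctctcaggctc
The Cxcl13 stretch held 1 match, 113 bases before the gene start, and the Ccl19 stretch held none. Of the 32851 such stretches in the RefSeq table, 3.99% held at least 1. The match is a description of letters and not of a bound site. Since the form was taken from chemokine genes of this kind, a match in Cxcl13 is no independent result. Other kB forms were not searched, so the Ccl19 stretch may hold one. The transcripts also differ in how unique they are. Of the 696 windows of 50 bases in the annotated Ccl19 transcript, 475 (68.25%) recur in transcripts of other annotated genes, among them the protein-coding gene Gm2564 and the pseudogenes Ccl19-ps1, Ccl19-ps3 and Gm12407. Of the 1101 windows of Cxcl13, 0 recur. The panel's probe sequences were not used here, so counts named Ccl19 may include transcripts of these copies.

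Ccl19 was the more abundant of the 2 targets and lay between 1120 and 1951 CPM in all 6 areas, while Cxcl13 was low in 5 areas and high in 1. Kept cells held 10249 Ccl19 counts, rank 95 of the 1000 targets, and 5932 Cxcl13 counts, rank 357. A Ccl19 count was present in 8120 cells (16.35%), a Cxcl13 count in 4380 cells (8.819%), and both in 998 cells. For Ccl19 the areas stood at 1797, 1951 and 1334 CPM in control and at 1543, 1360 and 1120 CPM in HIRA KO. These values overlap between the genotypes, and each is at least 2.087 times the highest negative probe of its area. For Cxcl13 the areas stood at 789.5, 682.7 and 567.5 CPM in control and at 576.5, 576.4 and 1835 CPM in HIRA KO. HIRA KO area 3 is thus far above the rest, and control area 3 and HIRA KO area 2 lie below the highest negative probe of their own area (603.6 and 625.7 CPM), so that a Cxcl13 signal there was not detectable above background in the area as a whole. HIRA KO area 3 held 41.28% of all Cxcl13 counts, against 19.46% of the counts of all targets and 14.58% of Ccl19 counts.

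The high level in HIRA KO area 3 was present in each of its 8 fields of view. Cxcl13 ranged from 1361 to 3099 CPM with a median of 1700 CPM in those fields, and from 385.2 to 954.6 CPM with a median of 642.8 CPM in the 42 other fields. No field of HIRA KO area 3 overlapped any other field for Cxcl13. Ccl19 ranged from 512.9 to 1608 CPM in HIRA KO area 3 and from 913.3 to 2436 CPM in the other 42 fields, which overlap. When all targets with enough counts were ranked by their level in HIRA KO area 3 over the highest of the other 5 areas, Cxcl13 came first of 802 with a ratio of 2.176 (100 CPM added to both levels), followed by Selenop with 1.359 and C1qa with 1.346. This rank describes 1 area and has no replicate.

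**Figure D1:**
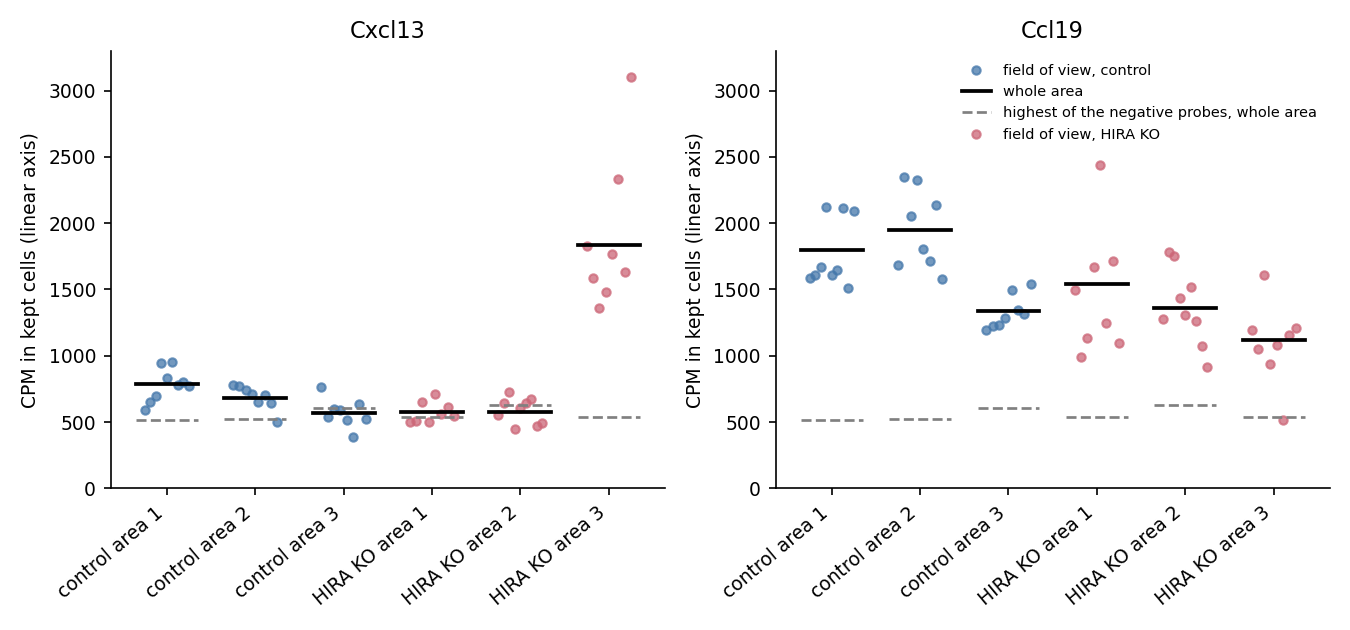
CPM of Cxcl13 (left) and Ccl19 (right) in kept cells on a linear axis, with a point for each field of view, a black line for the whole area and a dashed line for the highest of the 10 negative probes in that area. All 8 fields of HIRA KO area 3 lie at 1361 CPM or above for Cxcl13, over the highest of the 42 other fields at 954.6 CPM, while for Ccl19 its fields overlap those of every other area.

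The first comparison asked whether either chemokine differed between HIRA KO and control liver. Neither passed the test. Cxcl13 averaged 679.9 ± 111.0 CPM in control (SD, n = 3 areas) and 996.0 ± 726.6 CPM in HIRA KO (SD, n = 3 areas), a log2 difference of 0.70 ± 0.39 (SE, edgeR quasi-likelihood test, adjusted p = 0.703). Without HIRA KO area 3 the difference was -0.17 (adjusted p = 0.9122), so its direction rested on that area. Ccl19 averaged 1694 ± 321.1 CPM in control (SD, n = 3 areas) and 1341 ± 212.1 CPM in HIRA KO (SD, n = 3 areas), a log2 difference of -0.22 ± 0.15 (SE, edgeR, adjusted p = 0.7978). Of the 998 targets tested in this comparison, 0.2% were called in either direction. In a bulk sum over an area, more source cells and more RNA per cell cannot be told apart, so the same test was made within each cell class.

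Within the 9 classes that held at least 100 cells in every area, the genotype comparison called 0 of 9 for Cxcl13 and 0 of 9 for Ccl19 by edgeR, with 2 classes for Cxcl13 and 3 for Ccl19 at an unadjusted p under 0.05. The share of targets called was 0.0% in T/NK-, cholangiocyte-, neutrophil-, stellate- and vascular endothelial-like cells, 0.321% in fibroblast-like, 0.401% in hepatocyte-like, 0.501% in sinusoidal endothelial-like and 0.502% in Kupffer-like cells. For Ccl19 the log2 difference was below 0 in 8 of the 9 classes and lay between -0.66 in cholangiocyte-like and 0.08 in stellate-like cells. In hepatocyte-like cells, the class in which the virus is meant to delete HIRA, Ccl19 stood at 1258, 1705 and 912.5 CPM in control and at 953.2, 942.2 and 841.7 CPM in HIRA KO (log2 difference -0.39 ± 0.16, SE, edgeR, adjusted p = 0.3405). These values overlap, and without control area 3 the difference was -0.59 (edgeR, adjusted p = 0.04527), while without control area 2 it was -0.12 (adjusted p = 0.8236). In fibroblast-like cells, Ccl19 was 2386, 2307 and 2390 CPM in control and 1970, 2224 and 2246 CPM in HIRA KO. The groups do not overlap there, but the exact permutation test gave p = 0.1 (two-sided), the smallest that 3 areas against 3 allow, and the edgeR adjusted p was 0.9327.

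For Cxcl13 the largest genotype differences within a class were in Kupffer-like cells, the resident macrophages of the liver, and in stellate-like cells, the pericytes that store vitamin A. Kupffer-like cells stood at 1059, 1235 and 867.6 CPM in control and at 466.8, 686.9 and 5547 CPM in HIRA KO. The HIRA KO areas lie on both sides of the controls, 2 below all of them and 1 above. The log2 difference was 1.27 ± 0.45 (SE, edgeR, adjusted p = 0.586), -0.82 without HIRA KO area 3 (adjusted p = 0.1742), 1.16 without control area 3 (adjusted p = 0.0005284) and 1.71 without HIRA KO area 1 (adjusted p = 3.294e-07), so the call depended on which area was left out. Stellate-like cells stood at 581.2, 603.4 and 375.1 CPM in control and at 645.5, 501.3 and 2087 CPM in HIRA KO, a log2 difference of 1.03 ± 0.30 (SE, edgeR, adjusted p = 0.2845). It was 0.18 without HIRA KO area 3 (adjusted p = 0.9329), so it rested on that area, and without HIRA KO area 2 it was 1.46 (edgeR, adjusted p = 0.0004764). By exact permutation of areas (two-sided) the stellate-like difference had p = 0.4, and the Kupffer-like difference did not pass either. The edgeR p-values use a spread moderated over all targets, so they can understate the spread of Cxcl13 between areas.

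Which cells held each transcript was examined next, with each class set against all other cells of the same areas. By sheer number, hepatocyte-like cells held the most counts of both genes, 27.76% of Cxcl13 and 25.26% of Ccl19 counts, but they also held 35.41% of all counts. Unnamed cells, 9837 in number, held 16.23% of Cxcl13 and 20.82% of Ccl19 counts and stand among the other cells. One unnamed cluster was led by the hepatocyte marker Glul. Unnamed cells numbered 2577 in control area 1 and 692 in HIRA KO area 3, against 1050 and 2855 hepatocyte-like cells. Some hepatocytes may thus lie among the other cells, to a differing extent between areas. The figures that follow for hepatocyte-like cells carry this limit. Their Ccl19 level was lower than that of other cells in 6 of 6 areas (log2 difference -0.64 ± 0.08, SE, edgeR, adjusted p = 3.718e-05); 24.1% of targets were called lower in hepatocyte-like cells. For Cxcl13 hepatocyte-like cells were also below other cells in 6 of 6 areas, at -0.40 ± 0.17 (SE), which did not pass the test (edgeR, adjusted p = 0.06296).

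Of the 9 classes tested, both that were higher than other cells in Ccl19 were mesenchymal. Stellate-like cells, named from Dcn, Cxcl12 and Hgf, held 2483, 3594 and 2250 CPM in control and 3007, 2805 and 2609 CPM in HIRA KO. They ranked first or second among the named classes in all 6 areas, and were 1.04 ± 0.08 higher on the log2 scale than other cells (SE, edgeR, adjusted p = 3.629e-14), against 18.1% of targets called higher in this class. Fibroblast-like cells, named from collagens, Dpt and Gsn, held 1970 to 2390 CPM and were 0.65 ± 0.11 higher (SE, edgeR, adjusted p = 2.105e-06), against 8.62% of targets called higher. Both classes exceeded other cells in 6 of 6 areas, and every setting tried kept both calls. The other classes tested (T/NK-, cholangiocyte-, neutrophil-, Kupffer-, sinusoidal and vascular endothelial-like) lay between -0.33 and 0.26 and did not pass. T/NK-like cells passed at 0.34 without HIRA KO area 3 (edgeR, adjusted p = 0.03047), as did neutrophil-like at -0.39 (adjusted p = 0.03889), while cholangiocyte-like cells passed at 0.39 without HIRA KO area 1 (adjusted p = 0.008707), as did sinusoidal endothelial-like at 0.21 (adjusted p = 0.02807). Kupffer-like cells passed at -0.32 with library size as the only scaling (adjusted p = 0.0009367).

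B-cell-like cells were not tested, since control area 2 held 73 of them, under the limit of 100. Their Ccl19 level was 3162, 2292 and 832.8 CPM in control and 2996, 1595 and 2320 CPM in HIRA KO, above other cells in 5 of 6 areas. This spread, from 832.8 to 3162 CPM, is wider than that of stellate-like cells and overlaps it, so the order of these classes is not resolved. Cells with 5 or more Ccl19 counts were rare, 25 in all areas, and of these 10 were B-cell-like, 5 monocyte/dendritic-like, 4 hepatocyte-like, 1 stellate-like and 1 fibroblast-like. The single cell with 10 or more was B-cell-like. When each cell was thinned to 50 counts, the share with a Ccl19 count was 11.32% to 16.57% in stellate-like cells, 10.11% to 12.99% in fibroblast-like cells and 4.07% to 7.618% in hepatocyte-like cells. These ranges do not overlap between hepatocyte-like cells and either mesenchymal class.

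Cxcl13 followed another order. Kupffer-like cells were the 1 tested class of 9 that was higher than other cells, by 1.07 ± 0.19 on the log2 scale (SE, edgeR, adjusted p = 0.0002065), against 20.6% of targets called higher in this class. The level exceeded that of other cells in 5 of 6 areas, the exception being HIRA KO area 1 with 466.8 against 581.5 CPM. That value also lay below the highest negative probe of the class there, at 556.6 CPM. Among the named classes, Kupffer-like cells ranked first in control area 2 and HIRA KO area 3, and second in control areas 1 and 3. In HIRA KO areas 1 and 2 they were not among the 3 leading classes, which B-cell-like (867.7 CPM) and vascular endothelial-like cells (919.3 CPM) headed. Without HIRA KO area 3 the difference was 0.60 ± 0.14 (SE, edgeR, adjusted p = 0.002955). Monocyte/dendritic-like cells, with under 100 cells in 1 area and therefore not tested, held 1025, 380.9 and 774.0 CPM in control and 669.0, 626.8 and 5028 CPM in HIRA KO. Cxcl13 was lower in fibroblast-like cells (-0.58 ± 0.15, SE, edgeR, adjusted p = 0.005013; 5.71% of targets called lower) and in sinusoidal endothelial-like cells (-0.30 ± 0.10, SE, edgeR, adjusted p = 0.01802; 21.1% called lower). Without HIRA KO area 3 these were -0.35 (adjusted p = 0.1379) and -0.16 (adjusted p = 0.2854), so both rested on that area. The sinusoidal endothelial call was also lost without HIRA KO area 2 (-0.27, adjusted p = 0.0599), and with DESeq2 the adjusted p was 0.06299 in fibroblast-like and 0.09259 in sinusoidal endothelial-like cells. In the 5 areas other than HIRA KO area 3, fibroblast-like cells exceeded the highest negative probe of their class in 1 of 5 and hepatocyte-like cells in 2 of 5, against 4 of 5 for Kupffer-, monocyte/dendritic- and B-cell-like cells.

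**Figure D2:**
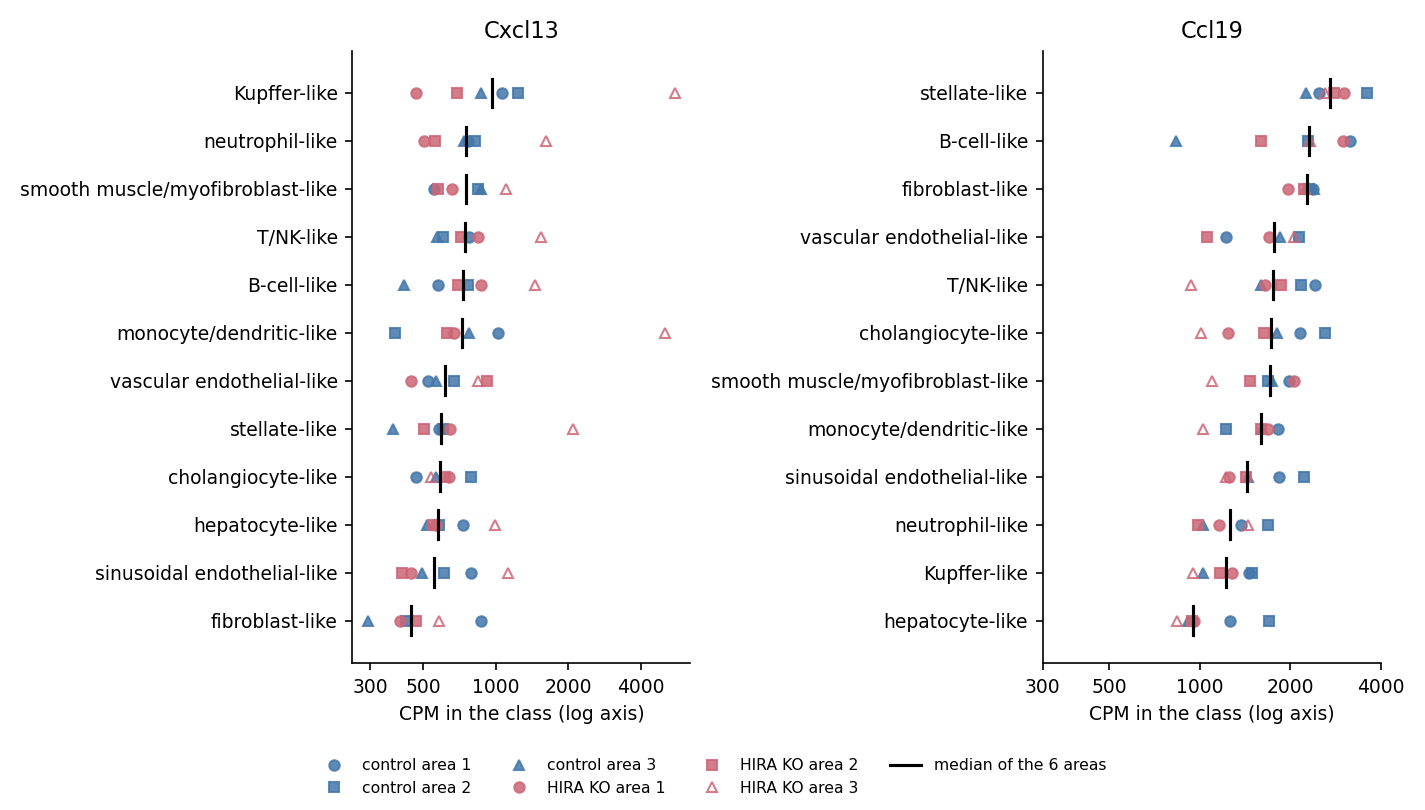
CPM of Cxcl13 (left) and Ccl19 (right) in each named class on a log axis, with a symbol for each of the 6 areas, HIRA KO area 3 as an open triangle and a black bar at the median; plasma-like and unnamed cells are left out. For Ccl19, stellate-like cells lie at 2250 to 3594 CPM; for Cxcl13, Kupffer-like (5547 CPM) and monocyte/dendritic-like cells (5028 CPM) of HIRA KO area 3 lie apart from all other values.

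In HIRA KO area 3 the Cxcl13 level in both macrophage classes was several times that in the other areas, and it stayed so with depth held equal. Thinned to 50 counts a cell, 22.05% of Kupffer-like cells held a Cxcl13 count there, against 1.9% to 7.065% in the other 5 areas. Unthinned, the shares were 44.79% against 5.8% to 15.51%, with median depths of 165.5 against 96 to 131 counts. The thinned share was 18.0% in monocyte/dendritic-like cells against 3.007% to 4.498% elsewhere, 8.876% in stellate-like cells against 2.029% to 3.254%, and 4.405% in hepatocyte-like cells against 2.463% to 3.424%. In each of these 4 classes HIRA KO area 3 lies above the other 5 areas, with the widest gap in the macrophage classes. The monocyte/dendritic-like class also differed in its markers there. Of 7 Kupffer markers, 6 were higher in that class of HIRA KO area 3 than in each of the 5 other areas, among them Marco (1661 against at most 753.3 CPM) and C1qa (10280 against at most 6192 CPM). Summed, the 7 stood at 37330 CPM against 14950 to 26500 CPM, while the 9 markers of the class itself stood at 86630 CPM, inside the range of 80100 to 101800 CPM. In Kupffer-like cells 2 of the 7 were higher and 1 lower than in the other areas, with a sum of 52360 CPM against 36070 to 51670 CPM. None of these markers was at 0 in any area, and their part in the Cxcl13 level was not tested. Cholangiocyte-like cells of that area held 540.2 CPM, inside the range of 467.4 to 791.7 CPM of the other areas.

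Cells with 5 or more Cxcl13 counts, called Cxcl13-bright here, numbered 78, and all 78 lay in HIRA KO area 3. They were spread over all 8 of its fields, with 3 to 20 in a field, and reached 15 counts in a cell. The cutoff is a raw count and so favours deeply counted cells. Bright cells had a median of 272.5 counts, against 147 in kept cells of that area and 88 to 134 in the other areas. Of the 78, 33 were monocyte/dendritic-like, 29 Kupffer-like, 8 hepatocyte-like and 0 fibroblast- or cholangiocyte-like. The 2 macrophage classes thus made up 79.49% of bright cells and 17.74% of the cells of the area. Bright cells held 21.68% of the area's Cxcl13 counts, and 847 other cells of the area held a single count. At 3 or more counts there were 6, 13 and 5 cells in control areas and 8, 12 and 233 in HIRA KO areas.

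Cells of other classes in HIRA KO area 3 were compared by how many macrophages lay among their 20 nearest cells, a neighbourhood with a median radius of 352.9 pixels. Hepatocyte-like cells held 667.8 CPM of Cxcl13 with none (95% interval 407.9 to 1031), 902.4 CPM with 1 or 2, 1017 CPM with 3 to 5 and 1206 CPM with 6 or more (998.4 to 1444). In the other 5 areas pooled, the same bins held 514.2, 541.0, 656.4 and 535.4 CPM. The intervals of the first and last bin of HIRA KO area 3 overlap slightly, and no replicate area exists. Stellate-like cells of that area showed no such order, with 1948, 2268 and 1936 CPM from 1 or 2 to 6 or more macrophages. The part of transcripts assigned across cell borders in these values was not tested.

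**Figure D3:**
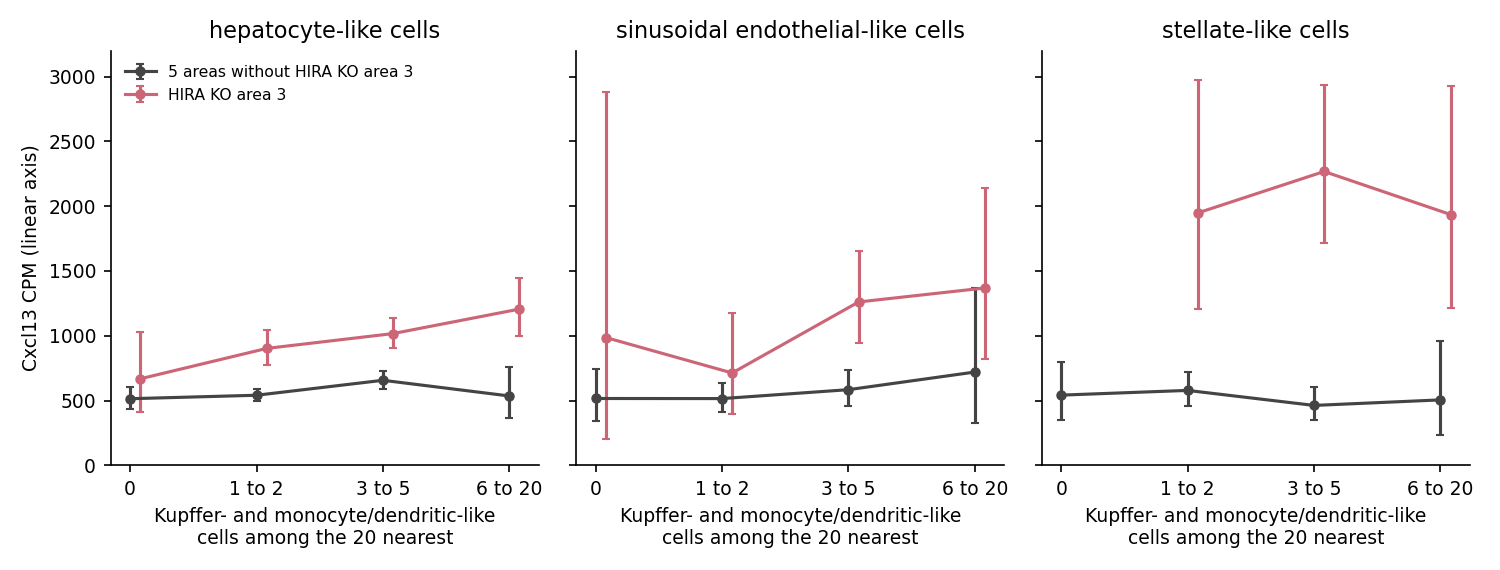
Cxcl13 CPM (linear axis, exact 95% Poisson intervals) in hepatocyte-, sinusoidal endothelial- and stellate-like cells by the number of Kupffer- and monocyte/dendritic-like cells among the 20 nearest, for HIRA KO area 3 and for the other 5 areas pooled; bins under 20 cells are left out. In HIRA KO area 3 hepatocyte-like cells run from 667.8 to 1206 CPM and stellate-like cells lie between 1936 and 2268 CPM, while the other areas lie between 462.4 and 720.1 CPM.

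Position near bile ducts was tested because the study examined whether HIRA KO hepatocytes turn into cholangiocytes, the cells that line bile ducts. Cells were called near a duct if at least 3 of their 20 nearest cells were cholangiocyte-like, and cholangiocyte-like cells themselves were left out. Neither chemokine passed the test. Ccl19 stood at 1980, 1910 and 1661 CPM near ducts in control areas, with 1742, 1942 and 1277 CPM far from them. In HIRA KO areas it stood at 1495, 1434 and 965.5 CPM near and at 1584, 1313 and 1134 CPM far. The areas go both ways, 3 higher and 3 lower near ducts, and the log2 difference was 0.06 ± 0.08 (SE, edgeR, adjusted p = 0.8679). Cxcl13 stood at 835.1, 452.5 and 488.6 CPM near and 809.1, 689.8 and 575.5 CPM far in control, and at 530.0, 630.5 and 954.5 CPM near and 581.6, 557.4 and 1933 CPM far in HIRA KO. Its log2 difference was -0.25 ± 0.12 (SE, edgeR, adjusted p = 0.4704), and -0.04 without HIRA KO area 3. Of all targets, 3.41% were called near ducts in either direction.

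Position near lymphocytes was compared in the same way. Cells were called near a lymphocyte aggregate if at least 5 of their 20 nearest cells were B-cell- or T/NK-like, with those lymphocytes themselves left out. Ccl19 was 0.95 ± 0.20 higher near aggregates on the log2 scale (SE, edgeR, adjusted p = 0.0001551), against 4.91% of targets called higher. In HIRA KO areas it stood at 2709, 2050 and 2771 CPM near and at 1372, 1344 and 1018 CPM far. In control areas it stood at 3172, 1820 and 1390 CPM near and at 1735, 1945 and 1333 CPM far. Ccl19 was higher near aggregates in 5 of 6 areas, and the exception, control area 2, rested on 8 near cells with 2 Ccl19 counts. The near side was small in control, with 54, 8 and 46 cells, against 498, 74 and 153 in HIRA KO. The difference was 0.75 without HIRA KO area 3 and then just missed the threshold (edgeR, adjusted p = 0.05535), it was 0.27 when 3 lymphocytes sufficed (adjusted p = 0.1627), and 0.42 when cells took the class of their highest marker score (adjusted p = 0.2957). B-cell-like cells were also unevenly spread. In HIRA KO area 1 a single field of view held 280 of 448. In HIRA KO area 3 a single field held 229 of 335, and in control area 1 a single field held 71 of 190. These fields had the highest Ccl19 of their areas (2436, 1608 and 2121 CPM). In the other areas the field with most B-cell-like cells did not have the highest Ccl19. How much of the near-to-far difference lay between fields was not tested.

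The higher Ccl19 level lay where lymphocytes were dense, as a description with no test. Pooled over the 6 areas, cells with 0, 1 to 2 and 3 to 4 lymphocytes among the 20 nearest held 1389, 1478 and 1444 CPM. Cells with 5 to 9 held 2356 CPM (95% interval 2049 to 2698), and cells with 10 or more held 3529 CPM (2865 to 4301). Without HIRA KO area 3 the last 2 values were 2291 and 4056 CPM, from 577 and 103 cells. The makeup of the near side differed from the far side. Monocyte/dendritic-like cells were 19.57% to 33.33% of near cells in 5 areas and absent from the 8 near cells of control area 2, against 1.14% to 10.26% of far cells, and plasma-like cells were up to 33.33% of near cells. With stellate-, fibroblast-, Kupffer- and monocyte/dendritic-like cells left out on both sides, Ccl19 was 0.85 higher near aggregates (edgeR, adjusted p = 0.03196). This fit kept plasma-like cells, so it cannot separate makeup from level. They were 33.33%, 19.08% and 28.1% of near cells in control area 1 and HIRA KO areas 1 and 3. Their Ccl19 there was 3995, 3379 and 3394 CPM. The part of transcripts assigned across borders from adjoining B-cell-like cells was not tested. Within monocyte/dendritic-like cells Ccl19 was higher near than far in 4 of the 5 areas that had such cells, for instance 3988 CPM from 114 cells against 1379 CPM in HIRA KO area 1 and 2764 CPM from 51 cells against 923.0 CPM in HIRA KO area 3, and lower in HIRA KO area 2 with 716.8 against 1626 CPM. Other classes did not all follow. In HIRA KO areas, hepatocyte-like cells held 925.5, 940.3 and 986.5 CPM near and 953.7, 942.2 and 841.0 CPM far, from 45, 7 and 13 near cells. Fibroblast-like cells there held 3727, 4975 and 2575 CPM near and 1891, 2143 and 2217 CPM far, from 28, 21 and 12 near cells. Both classes had few near cells in control areas. These values per class have no test.

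Cxcl13 did not pass the test near aggregates. It stood at 679.7, 909.9 and 595.8 CPM near and 796.3, 683.1 and 569.4 CPM far in control, where the near values rest on 6, 1 and 3 counts. In HIRA KO it stood at 338.6, 683.2 and 748.9 CPM near and 558.7, 571.9 and 1887 CPM far. The log2 difference was -0.57 ± 0.24 (SE, edgeR, adjusted p = 0.154). It was -0.25 without HIRA KO area 3 (adjusted p = 0.8083), and with cells of 50 or more counts it was -0.88 and passed (edgeR, adjusted p = 0.0141; control area 2 was left out for want of near cells). In HIRA KO area 3, where Cxcl13 was abundant, cells with 0 lymphocytes around them held 1993 CPM and cells with 5 to 9 held 691.0 CPM (95% interval 331.4 to 1271). Monocyte/dendritic-like cells of that area held 921.3 CPM near aggregates (51 cells, 7 counts) and 5272 CPM far from them (692 cells). The field of view with 229 of that area's 335 B-cell-like cells also had its lowest Cxcl13, at 1361 CPM. Nearness to aggregates and field were therefore not separated there.

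**Figure D4:**
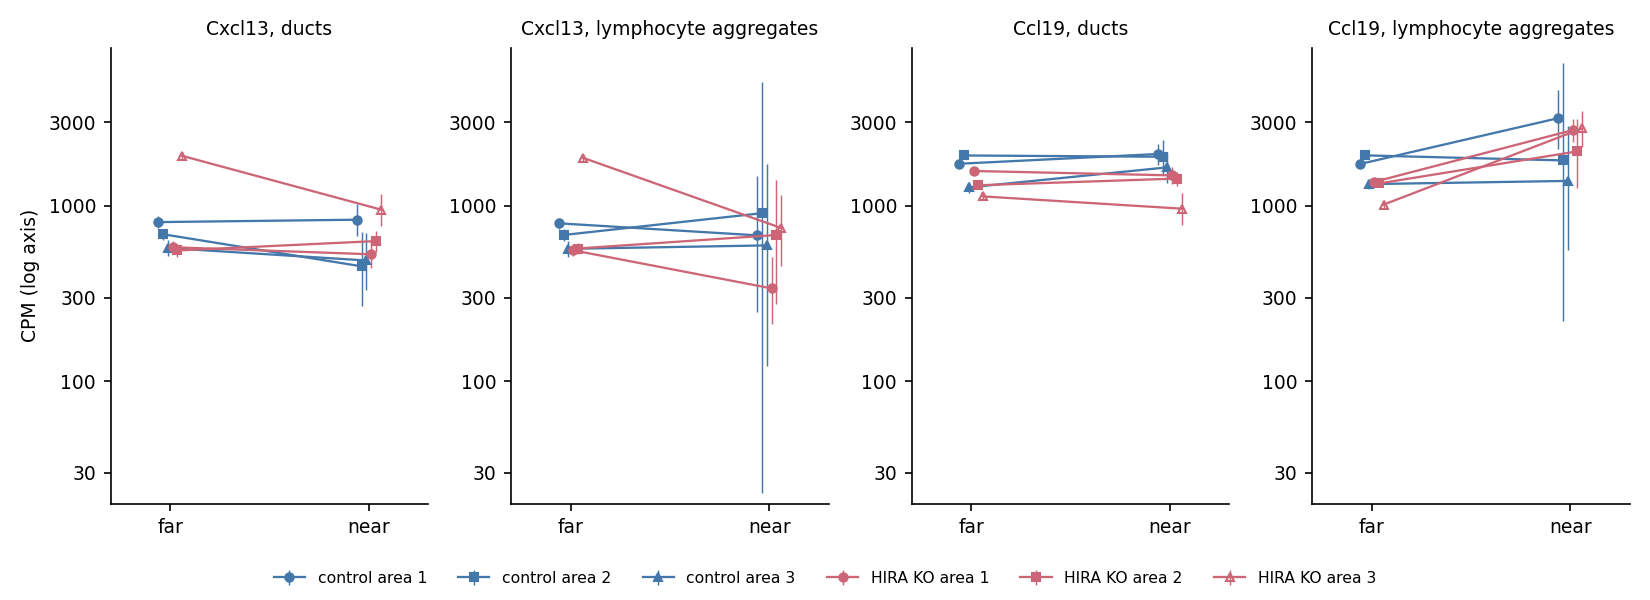
CPM (log axis, exact 95% Poisson intervals) of each gene far from and near ducts or lymphocyte aggregates, with a line for each area. Ccl19 is higher near aggregates in all 3 HIRA KO areas (to 2709, 2050 and 2771 CPM) and in control area 1 (to 3172 CPM), while control areas 2 and 3 have wide intervals; Cxcl13 of HIRA KO area 3 is lower near both places.

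**Figure D5:**
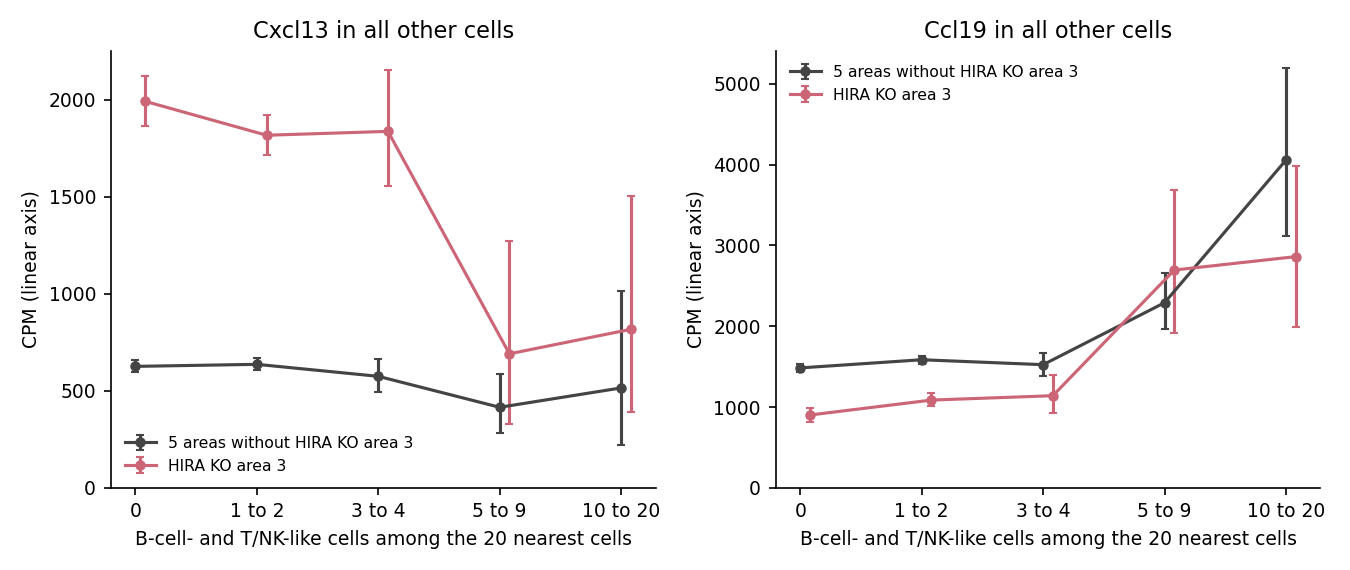
CPM (linear axis, exact 95% Poisson intervals) of Cxcl13 (left) and Ccl19 (right) in cells other than lymphocytes, by the number of B-cell- and T/NK-like cells among the 20 nearest, for HIRA KO area 3 and the other 5 areas pooled. Ccl19 stays between 1484 and 1585 CPM up to 4 lymphocytes in the 5 areas and reaches 4056 CPM at 10 or more, and Cxcl13 in HIRA KO area 3 is 1838 CPM with 3 to 4 lymphocytes and 691.0 CPM with 5 to 9.

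Whether these differences themselves differed between genotypes was tested on the log2 ratio of near to far in each area, by an exact permutation test (two-sided), over 4 comparisons, with 1 count added to each sum. The added count weighs where counts are few: in control area 2, with 2 Ccl19 counts near aggregates, it gave a log2 ratio of 0.49 although the level itself was lower near than far, and with 1 Cxcl13 count there it gave 1.41. The mean ratio of Ccl19 near aggregates was 1.04 ± 0.40 in HIRA KO (SD, n = 3) and 0.55 ± 0.34 in control (SD, n = 3, exact p = 0.2, adjusted p = 0.2667). For Cxcl13 it was -0.49 ± 0.87 in HIRA KO (SD, n = 3) and 0.63 ± 0.72 in control (SD, n = 3, exact p = 0.2, adjusted p = 0.2667). Near ducts the exact p was 0.2 for Ccl19 (adjusted p = 0.2667) and 0.9 for Cxcl13 (adjusted p = 0.9). No p below 0.1 can be reached with 3 areas against 3.

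Around Cxcl13-bright cells the B-cell-like and cholangiocyte-like shares were below those of the whole area, and the T/NK-like share was close to it. The area's B-cell-like share was set largely by 1 field of view. That field held 229 of the area's 335 B-cell-like cells, and each other field of the area held 12 to 19. Because all 78 bright cells lay in HIRA KO area 3, what surrounds them is a description of 1 area, with no test. B-cell-like cells, which carry CXCL13's receptor in lymphoid tissue, made up 3.285% of the 1248 cells around them (exact binomial 95% interval 2.368% to 4.431%) and 4.526% of all the area's cells that were not bright. T/NK-like cells made up 2.724% (1.894% to 3.786%) against 2.718%, and cholangiocyte-like cells 1.042% (0.5558% to 1.775%) against 3.33%. These intervals treat the cells as independent draws, which neighbouring cells of 1 section are not, so no difference is read from them. Ccl19 around bright cells stood at 1064 CPM (937.1 to 1203) and elsewhere in the area at 1130 CPM. Monocyte/dendritic-like cells with 3 or more Cxcl13 counts lay a median of 543.4 pixels from the nearest B-cell-like cell, against 429.1 pixels for those with 0 counts. Their median depths were 239 and 124 counts. For Kupffer-like cells the same distances were 518.1 and 495.8 pixels. To the nearest T/NK-like cell, Kupffer-like cells with 3 or more counts lay closer than those with 0 (391.6 against 437.2 pixels) and monocyte/dendritic-like cells farther (452.4 against 392.8 pixels). When cells with 3 or more Cxcl13 counts were used instead, all 6 areas contributed. Ccl19 then differed by 0.09 ± 0.12 around them (SE, edgeR, adjusted p = 0.9999), with 0.0% of the 998 targets called by edgeR and 34 at an unadjusted p under 0.05. The B-cell-like share was 1.54 ± 4.06 percentage points higher around them (SD, n = 6 areas, exact sign-change test, p = 0.5312, adjusted p = 1 over 14 classes), higher in 5 of 6 areas. The largest mean difference of the 14 classes was plasma-like, at 5.87 ± 15.6 points (SD, n = 6 areas, exact sign-change test, p = 0.9375), higher in 2 of 6 areas. In control area 1, plasma-like cells were 39.66% of the 116 cells around them, against 1.98% of the area.

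Across the 50 fields of view, with each field centred on its tissue area, the 2 chemokines were weakly related (Spearman rho 0.13). Fields of an area share a section, so no p is given for these correlations. Among the 756 targets with enough counts, those most like Cxcl13 were Spry4 (rho 0.54), Ms4a4b (0.53), Igf2r (0.53), Relt (0.51) and Arhgdib (0.51). The macrophage genes Cd5l and C1qa stood at 0.48 and 0.44, and the B-cell gene Cd79a at 0.32. Those most like Ccl19 were Vim (0.65), an intermediate filament of mesenchymal cells, Dpt (0.61), a fibroblast matrix protein, H2-DMa (0.59), Csk (0.59) and H2-Eb1 (0.58). For Ccl19, Cd5l stood at -0.19 and Cd79a at 0.26.

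Of the receptors and scavengers of the 2 chemokines, 4 were on the panel, and 0 of 4 passed the test for genotype, near ducts or near aggregates. Of all targets, 0.2% were called for genotype and 3.41% near ducts in either direction, and 4.91% were called higher near aggregates. With so few called, 0 of 4 says little about these genes. Cxcr5, the CXCL13 receptor, stood at 807.1 to 997.8 CPM in the 6 areas and did not mark B-cell-like cells here, with 990.3 CPM in that class and 904.8 CPM in other cells. Near aggregates it differed by 0.14 ± 0.22 (log2, SE, edgeR, adjusted p = 0.7947). Ccr7, the CCL19 receptor, had its highest level among the classes in B-cell-like cells, at 954.6 CPM, against 512.4 CPM in monocyte/dendritic-like cells, and stood at 592.0 to 787.2 CPM in the areas. Near aggregates it differed by -0.08 ± 0.26 (log2, SE, edgeR, adjusted p = 0.8877). The scavenger Ackr4, which removes CCL19, stood at 1077 to 1260 CPM in control and 857.3 to 955.1 CPM in HIRA KO. These ranges do not overlap, but the difference of -0.27 ± 0.10 (log2, SE) did not pass over all targets (edgeR, adjusted p = 0.5885). Ccrl2, which binds CCL19 without signalling, was higher in stellate-like cells by 0.46 ± 0.09 (log2, SE, edgeR, adjusted p = 0.0001367). It was the 1 of 4 called higher in that class, beside 18.1% of all targets.

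Upstream genes, from lymphotoxin and TNF to NF-kB, numbered 15 on the panel. Near aggregates 2 of 15 were higher and 0 lower, beside 4.91% of all targets called higher, with a median log2 difference of 0.16 against -0.04 over all targets. Ltb, a subunit of lymphotoxin made by lymphocytes, was 1.25 ± 0.27 higher (log2, SE, edgeR, adjusted p = 0.000251), and Nfkbia, an NF-kB inhibitor that NF-kB itself induces, was 0.67 ± 0.21 higher (log2, SE, edgeR, adjusted p = 0.02078). Ltb lay below the highest negative probe in all 6 areas, and its call was lost in 2 settings and that of Nfkbia in 10, among them the fits without control area 1, HIRA KO area 1 and HIRA KO area 3. The lymphotoxin receptor Ltbr stood at 749.1 to 1036 CPM in the areas. For genotype and near ducts 0 of 15 passed, beside 0.2% and 3.41% of all targets called in either direction. In Kupffer-like cells 6 of 15 were higher than in other cells (Nfkb1, Nfkbia, Tnfrsf1b, Tnfrsf1a, Cd40 and Tnf), and in stellate-like cells 4 of 15 (Nfkbia, Tnfrsf1b, Tnfrsf1a and Rela), beside 20.6% and 18.1% of all targets called higher in these classes. Over all cells, Cd40 lay above the highest negative probe in 0 of 6 areas and Tnf in 1 of 6.

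Genes of lymphoid stroma and venules numbered 6 on the panel, and 0 of 6 passed near aggregates, near ducts or for genotype. Of all targets, 4.91% were called higher near aggregates, and 3.41% near ducts and 0.2% for genotype in either direction. The median log2 difference near aggregates was 0.36 against -0.04 over all targets. The probe for Ccl21a, Ccl21b and Ccl21d, the other ligands of CCR7, does not separate the 3 genes, and it was 0.43 ± 0.23 (log2, SE) near aggregates (edgeR, adjusted p = 0.2942). In stellate-like cells 4 of 6 were higher than in other cells, beside 18.1% of all targets: Cxcl12 by 2.26 on the log2 scale, Vcam1 by 0.66, the Ccl21 probe by 0.38 and Icam1 by 0.29. Cxcl12 was also used to name that class, so its level there is no separate evidence.

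Of 23 other chemokines, 3 were higher near aggregates and 0 lower, beside 4.91% of all targets called higher. Cxcl9 was 1.29 ± 0.21 higher (log2, SE, edgeR, adjusted p = 1.129e-07), Ccl5 1.14 ± 0.21 (adjusted p = 2.75e-06) and Cxcl10 0.76 ± 0.21 (adjusted p = 0.006309). CXCL9 and CXCL10 attract activated T cells through CXCR3, and CCL5, made by T and NK cells, is a marker of the T/NK-like class. Without HIRA KO area 1, Cxcl9 was 0.83 (adjusted p = 0.1874) and Cxcl10 0.56 (adjusted p = 0.3816), Cxcl10 was 0.64 without HIRA KO area 2 (adjusted p = 0.07642), and at 8 or more lymphocytes Cxcl10 was -0.27. Of 11 other chemokine receptors, 0 passed near aggregates and 1 near ducts, beside 3.41% of all targets called there in either direction. This was Ackr3, a scavenger of CXCL12, at 0.30 ± 0.08 (log2, SE, edgeR, adjusted p = 0.04492). This call was lost in each of the 6 fits that left out an area.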

How the data were processed

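The authors profiled 5 μm sections of fixed liver with the CosMx Spatial Molecular Imager. The deposited counts are decoded transcripts per target and segmented cell, not normalized and not filtered; decoding and segmentation software versions are not given in the sources used here. The deposited intensity values are the mean stain brightness per cell and were used only to check classes. Positions in pixels are per the file headers, and the pixel size is not given in the sources used here.

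Cells with at least 20 counts and an area up to 5 times the geometric mean were kept, as in the study's methods. Pearson residuals (theta 100, values limited to 10 either way), 30 principal components and 20 nearest neighbours gave 25 clusters with Leiden (leidenalg 0.10.2, resolution 2.4), without Cxcl13 and Ccl19; the resolution was the lowest of those tried that separated B-cell-like cells and was set after seeing the data. A cluster took the class with the most markers among its 10 leading genes. At least 3 markers of that class also had to be raised by over 0.5 on the log2 scale. Ties went to the class with more raised markers, and a leading gene of another class left the cluster unnamed. The neutrophil-like cluster, for instance, had 2 of its markers among the 10. In all, 7 clusters stayed unnamed. No doublet caller was run. Counts were summed per area and tested with edgeR 4.0.16 (R 4.3.3; TMM, filterByExpr, quasi-likelihood, Benjamini-Hochberg over all targets tested, threshold 0.05), with area as a block where 2 sums of an area were compared. Exact permutation tests were two-sided. The fits were tested on simulated data. Alternatives were limma 3.58.1, DESeq2 1.42.0 and the settings in the closing section. Separate mice per area are not given by the labels, so p-values refer to areas and not to mice. The edgeR p-values rest on a spread between areas that is moderated over all targets, which can understate that of a single gene. The genes named are the 2 chemokines, the targets of 5 lists where they passed or are receptors, and the 5 targets most alike across fields. The 2 genes, the lists and the tests were chosen with earlier results of these data known; Kupffer-, stellate- and fibroblast-like cells were singled out after their values were seen.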

Additional observations from a re-analysis of the deposited data

Results flagged for a closer look

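Transcripts outside segmented cells, and so outside every comparison above, carried a Cxcl13 signal above the controls in 1 area. In HIRA KO area 3 Cxcl13 made up 1472 CPM of the transcripts outside cells (187 counts), against 921.8, 833.1 and 592.2 CPM in the control areas and 681.6 and 628.0 CPM in HIRA KO areas 1 and 2. The level outside cells was 0.8022 times that inside cells in HIRA KO area 3, and 1.044 to 1.22 times in the other 5 areas. Ccl19 outside cells stood at 913.3 CPM in that area, inside the range of 608.2 to 2657 CPM of the controls.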

How the results depend on the processing

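Over all results that answer a comparison, 261 values under another setting kept direction and side of the threshold, 11 turned direction, 8 newly passed, 3 no longer passed and 4 untested values moved. For Cxcl13 in hepatocyte-like cells against other cells, the log2 difference passed the threshold at -0.43 with library size as the only scaling, -0.45 with clusters made with both genes and -0.42 with classes by highest marker score, and ranged from -0.50 to -0.13 with 1 area left out. Near aggregates, Cxcl13 passed at -0.88 in cells with 50 or more counts, while Ccl19 no longer passed at 0.42 with marker-score classes and at 0.27 with a minimum of 3 lymphocytes, and ranged from 0.75 to 1.05 with 1 area left out. Differences between genotypes near aggregates turned direction to 0.075 for Cxcl13 with marker-score classes, and to -0.29 in cells with 50 or more counts and -0.69 with a minimum of 8 lymphocytes for Ccl19. Near ducts, Ccl19 was -0.14 with stellate-, fibroblast-, Kupffer- and monocyte/dendritic-like cells left out, an alternative chosen after seeing the data, and the genotype difference of Cxcl13 there ranged from -0.34 to 0.25 with 1 area left out. With marker-score classes, Ccl19 by genotype was -0.093 in stellate-like and 0.083 in fibroblast-like cells, and Cxcl10 near aggregates was -0.27 with a minimum of 8. With 1 area left out, the genotype difference ranged from -0.17 to 1.01 for Cxcl13 over all cells, from -0.82 to 1.71 in Kupffer-like cells, and for Ccl19 from -0.59 to -0.12 in hepatocyte-like and from -0.030 to 0.26 in stellate-like cells. With bright cells set at 10 or more Cxcl13 counts, Ccl19 around them was -0.68, the B-cell-like share -2.78 points and the cholangiocyte-like share -3.30 points; at 3 or more the B-cell-like share was 0.12 points. The cause was not tested in any of these. Few cells near aggregates in control, and Cxcl13 close to the negative probes in 5 areas, limit these comparisons. No analysis paired by replicate was possible because the labels give the tissue areas of the 2 genotypes no shared replicate numbers. Genotype fits with the slide row of the areas as a block were among the settings. For both genes over all cells, the row block kept the direction and neither gene passed. Other tools and fits leaving out an area were not run around bright cells, which lay in 1 area.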
